A study of Mus musculus with 3 samples.

Results

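MHC class II high capillary endothelial cells (ECs) of the mouse lung were taken as the 5% of gated capillary EC barcodes with the largest share of UMIs from Cd74, H2-Aa, H2-Ab1 and H2-Eb1. UMIs are the molecular barcodes by which copies of the same captured RNA are counted once. There were 1067 such cells among 21321 gated barcodes, out of 43842 barcodes with at least 300 detected genes in 3 droplet single-cell libraries of sorted lung ECs. A barcode passed the gate with 1000 to 5000 genes, under 20% mitochondrial UMIs, at least 2 UMIs of Pecam1 and Cdh5 together, at least 3 UMIs of the capillary genes Gpihbp1, Kit, Plvap and Aplnr together, and none of the leukocyte genes Lyz2, Cd79a and Cd68. The other 20254 gated barcodes served as the reference.

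The libraries came from C57BL/6 mice injected through the tail vein and differed in what was injected and when the lungs were taken. The control mice received 100 µl of PBS and were taken after 6 h. The melanoma groups received 200000 B16-F10 cells, a syngeneic skin melanoma line labelled with a green tracker dye, in the same volume, and were taken after 6 h or 30 h. The labels give 2 mice per treatment, pooled in 1 library, and no age, and the study's methods give a different number of mice. All lungs were digested for the sort of Pecam1-positive, Ptprc-negative cells, and tracker-positive melanoma cells were added to the 6 h library per its label. With 1 library per group, a difference between groups cannot be told apart from a difference between libraries, the 30 h group had no control of its own time, and no test across groups was possible. Both melanoma groups were set against the same control library. Intervals are 95% intervals and cover counting error only.

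MHC class II molecules present peptides from the endosomal pathway to CD4+ T cells. Their α and β chains (H2-Aa with H2-Ab1, and H2-Eb1 for the β chain of H2-E, whose α chain C57BL/6 mice lack) assemble with the invariant chain Cd74, which blocks the groove until the peptide editor H2-DM, made of H2-DMa and H2-DMb1, loads a peptide. The transactivator Ciita, which interferon gamma induces, controls these genes together through a conserved promoter module bound by the RFX, CREB and NF-Y factors. Capillary ECs of the lung are known to carry MHC class II in resting mice, general capillary cells more than aerocytes, the flat capillary cells specialised for gas exchange.

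The promoters of these genes are shown because the members were picked on genes that share this module, and because the H2-DM genes, which the rule did not use, followed them. The lines give the 130 bases before a transcript start annotated in GRCm38.p6 by RefSeq, 5′ to 3′ on the strand of the gene, with the 7 letters TGATTGG, the core of the NF-Y site known as the Y box, in capitals.
H2-Aa (chr17:34287824-34287953, minus strand): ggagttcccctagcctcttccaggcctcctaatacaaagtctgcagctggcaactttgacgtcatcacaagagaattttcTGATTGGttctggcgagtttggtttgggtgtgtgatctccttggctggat
H2-Eb1 (chr17:34305737-34305866, plus strand): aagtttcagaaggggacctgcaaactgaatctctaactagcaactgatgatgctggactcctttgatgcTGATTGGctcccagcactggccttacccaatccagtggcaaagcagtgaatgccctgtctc
H2-DMb1 (chr17:34153061-34153190, plus strand): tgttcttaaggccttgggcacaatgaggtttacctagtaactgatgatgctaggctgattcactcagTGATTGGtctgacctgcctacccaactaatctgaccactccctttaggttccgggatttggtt
H2-DMa (chr17:34122702-34122831, plus strand): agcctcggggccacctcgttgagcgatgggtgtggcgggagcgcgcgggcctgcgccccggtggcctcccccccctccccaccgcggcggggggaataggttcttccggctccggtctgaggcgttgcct
The letters began 50 bases before the start in H2-Aa, 61 in H2-Eb1 and 63 in H2-DMb1. The same letters stood in the windows of H2-Ob, H2-Oa, H2-DMb2 and H2-Eb2, and in neither of the 2 H2-DMa windows, of which the first is printed. Among the regulators, they also stood in the Rfx5 window, on the other strand, and in a window of Nfyc, whose other windows lacked them. The windows of H2-DMa, H2-DMb2 and H2-Eb2 lie inside the span that the annotation gives for the whole gene, before a start within it and not before its outer end. Searched on both strands in windows of this length, TGATTGG stood in 1756 of 32851 promoters (5.35%). A match is a description of the letters. H2-Ab1 and Ciita had no entry. On the same assembly, H2-DMa lies at chr17:34119693-34139101, H2-DMb1 at chr17:34153191-34160229, H2-Ab1 at chr17:34263227-34269418, H2-Aa at chr17:34282744-34287823 and H2-Eb1 at chr17:34305867-34316674, all 5 in the MHC region, and Ciita lies at chr16:10480014-10531064.

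The value that chose the cells was a continuous tail with no gap. The limit lay at 2223 CPM, the number of UMIs per 1000000 UMIs of the barcode. The lowest member had 2223 CPM and the first barcode outside had 2221 CPM. Within 10% of the limit there were 209 members above and 229 barcodes below it, while 163 members reached 2 times the limit or more and the highest had 9746 CPM. The median gated barcode had 210 CPM and 32.7% of the gated barcodes had no UMI of the 4 genes. The members are therefore the upper end of the range of this value. Whether they form a cluster by other genes was not tested. Single members held between 5 and 90 UMIs of the 4 genes, with medians of 23 (control), 25 (6 h) and 24 (30 h).

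**Figure D1:**
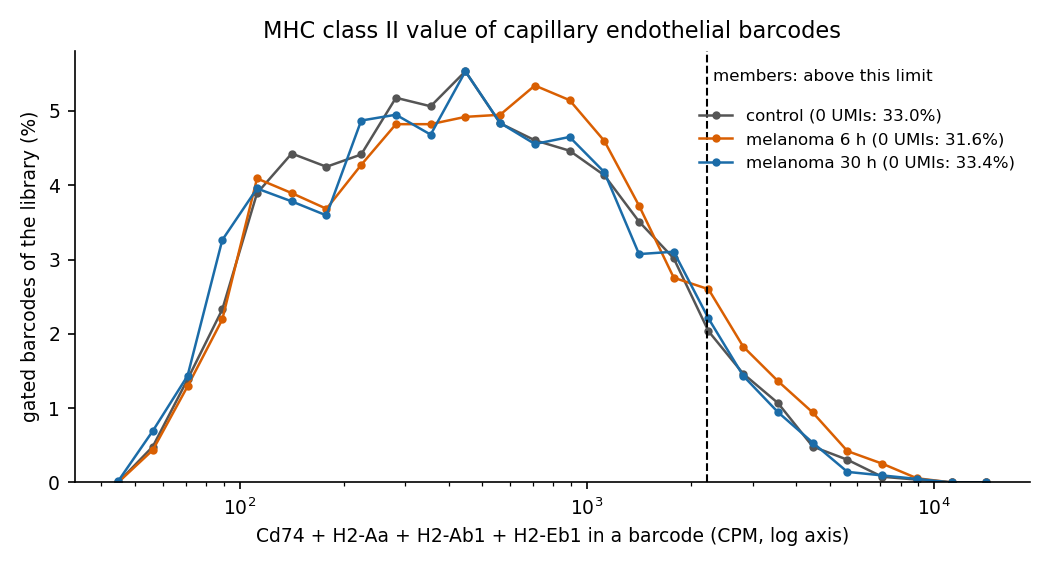
Share of gated barcodes (%, y axis) by the summed CPM of Cd74, H2-Aa, H2-Ab1 and H2-Eb1 in the barcode (log x axis, bins of equal width), 1 line per library. The dashed line is the limit of 2223 CPM; the 3 lines run through it without a dip, and the legend gives the share of barcodes with 0 UMIs, which lies outside the axis.

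Member cells were about as deep as the rest. Their median UMI count was 7206 in control, 7518 at 6 h and 7892 at 30 h, against 7793, 7998 and 8642 in the reference. Total UMIs per library were between 124085451 and 140601123. Every library also held free RNA. Droplets of under 100 UMIs carried the 4 genes at 611 CPM in control, 714 CPM at 6 h and 694 CPM at 30 h, above the reference (378, 402 and 369 CPM) and far below the members (3332, 3439 and 3219 CPM). Of the members, 74.1%, 77.6% and 82.3% held at least 1 UMI of each of the 4 genes. This share is a description, since the rule picked the members on these genes, as is the 7.25%, 7.29% and 7.61% in gated barcodes marked by aerocyte genes, which were deeper (medians of 10652, 11095 and 11126 UMIs). Between the libraries, 1 member barcode was shared, by the 6 h and 30 h libraries.

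In general capillary genes, the members were close to the reference. The general capillary genes Tmem100, Ptprb and Cd93, which the rule did not use, were at 2379, 2517 and 1622 CPM in control members and at 2418, 2625 and 1557 CPM in the control reference. The median log2 ratio of members to reference over the 6 general capillary genes, averaged over the 3 libraries, was 0.09, beside -0.01 over all 8739 genes tested. Defining markers of leukocytes that carry MHC class II were at or near 0, as far as the gate, which asked for none of Lyz2, Cd79a and Cd68, leaves this free. The B-cell list of 11 genes summed to 3.09 CPM in control members, 1.75 CPM at 6 h and 8.17 CPM at 30 h, with Cd79b and Pax5 at 0 in all 3. The 12 macrophage genes summed to 11.2, 12.5 and 9.04 CPM, with C1qa at 0 throughout, and the 6 general leukocyte genes, Ptprc among them, to 6.56, 6.12 and 5.59 CPM against 5.96, 7.60 and 8.09 CPM in the reference. Of the 10 dendritic cell genes, Flt3, Cd209a and Siglech were at 0 in every member sum. The list still summed to 177, 141 and 170 CPM in members and 170, 143 and 167 CPM in the reference, nearly all of it from Clec9a and Zbtb46, which members and reference held alike. The T and NK cell list stood at 0.386 to 1.46 CPM and the neutrophil list at 1.72 to 5.24 CPM.

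Single barcodes still carried foreign RNA. Scgb1a1, the secretoglobin of airway club cells, was at 2190 CPM in 6 h members against 209 CPM in the reference, but 7299 of its 7520 UMIs came from 1 barcode and the level without it was 64.6 CPM. The melanoma genes summed to 11.1 CPM in 6 h members and 15.1 CPM in the 6 h reference, and to at most 1.29 CPM in the other sums. Surfactant genes of alveolar type 2 cells were at 133, 127 and 72.3 CPM in members and 120, 113 and 75.2 CPM in the reference. Platelet genes were at 33.2 to 54.8 CPM and mesenchymal genes at 8.88 to 13.1 CPM in members.

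Ranked on the 4 genes together, the share of capillary ECs that were MHC class II high was larger at 6 h than in control and about the same at 30 h, where it depended on the genes ranked. Members made up 347 of 7862 gated barcodes in control (4.41%, exact interval 3.97 to 4.89%), 438 of 7114 at 6 h (6.16%, 5.61 to 6.74%) and 282 of 6345 at 30 h (4.44%, 3.95 to 4.98%). The 6 h share exceeded control by 1.74 percentage points (1.02 to 2.48), and the 30 h share differed from control by 0.0308 points (-0.656 to 0.727). Over all gated barcodes the 4 genes summed to 498 CPM in control, 580 CPM at 6 h and 488 CPM at 30 h, log2 ratios to control of 0.22 (0.20 to 0.24) and -0.03 (-0.05 to -0.01). The same sum in droplets of under 100 UMIs moved with the 6 h level, by 0.23 (0.14 to 0.31) on the log2 scale, and was also above control at 30 h by 0.18. Whether free RNA had a part in the 6 h difference was not tested. The gate's leukocyte step dropped 6091 of 27412 capillary barcodes, with 1641, 1711 and 1179 of them holding a single such UMI, and 5.16%, 5.79% and 4.14% of those dropped lay above the limit.

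The 6 h share was the highest of the 3 in vein-marked, aerocyte-marked and unmarked barcodes alike, on few members among the aerocyte-marked ones. Gated barcodes were divided after the values had been seen into those with at least 3 UMIs of 5 aerocyte genes, those with at least 3 UMIs of 5 vein genes (Slc6a2, Vwf, Prss23, Bst1, Vegfc), and the rest. These are ranges of a count and not cell types: 1426 barcodes were 1 UMI short of the aerocyte mark. In control, members were 0.942% of the 1062 aerocyte-marked barcodes, 5.56% of the 2070 vein-marked and 4.69% of the 4730 others. At 6 h these shares were 1.98%, 7.76% and 6.33%, and at 30 h they were 1.22%, 5.98% and 4.66%. The aerocyte-marked barcodes were thus the poorest in MHC class II, at 238, 285 and 259 CPM against 595, 695 and 599 CPM in vein-marked ones. Of the members, 33.1%, 28.3% and 32.6% carried the vein mark, beside 26.3%, 22.5% and 24.2% of all gated barcodes. The 6 h interval was 5.65 to 7.06% in the unmarked class, where that of control was 4.11 to 5.34%. It was 6.5 to 9.18% in the vein-marked class and 1.13 to 3.19% in the aerocyte-marked class. These intervals count barcodes of 1 library per group and do not cover differences between libraries. In the vein-marked and aerocyte-marked classes the 6 h interval overlapped the control interval (4.61 to 6.63% and 0.452 to 1.72%), and the aerocyte-marked members numbered 10, 16 and 12.

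The 4 genes of the rule parted at 30 h. Cd74 stood at 1973 CPM in control members, 1969 CPM at 6 h and 1287 CPM at 30 h. H2-Aa stood at 481, 522 and 674 CPM, H2-Ab1 at 515, 571 and 806 CPM, and H2-Eb1 at 362, 376 and 452 CPM. Among members, then, the invariant chain was lower at 30 h while the 3 chain genes were higher. The log2 ratio of 30 h to control in members was -0.62 (-0.68 to -0.55) for Cd74, 0.48 (0.38 to 0.59) for H2-Aa, 0.64 (0.54 to 0.75) for H2-Ab1 and 0.32 (0.19 to 0.45) for H2-Eb1. At 6 h the same 4 ratios lay between -0.0025 and 0.15. Since members were picked on the sum of the 4, this sum is fixed to a similar height in each library and only its makeup is free to differ, so that a lower Cd74 goes with higher chain genes by the choice of members alone.

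The makeup differed in the reference as well, which the limit does not hold up. Cd74 was at 157, 176 and 84.5 CPM in the reference, a log2 ratio of -0.88 at 30 h (-0.94 to -0.84), while H2-Ab1 was at 95.2, 93.8 and 133 CPM, a log2 ratio of 0.48 (0.43 to 0.53). H2-Aa was at 74.3, 80.2 and 96.8 CPM there, a log2 ratio of 0.38 (0.32 to 0.44), and H2-Eb1 was nearly flat at 51.7, 52 and 54.7 CPM, a log2 ratio of 0.08 (0.01 to 0.15). Cd74 made up 59.2% of the members' UMIs of the 4 genes in control (58.2 to 60.2%) and 57.3% at 6 h (56.4 to 58.2%). At 30 h its share was 40.0% (38.9 to 41.1%). In the reference it made up 41.5%, 43.8% and 22.9%. The median member took 60.0% of its own class II UMIs from Cd74 in control, 57.9% at 6 h and 38.0% at 30 h, and Cd74 held 50% or more in 253 of 347, 294 of 438 and 81 of 282 members. The lower share at 30 h was present in aerocyte-marked barcodes (47.9%, 50.4% and 25.8%) and in vein-marked ones (47.8%, 49.8% and 30.4%). The drop was smaller in droplets of under 100 UMIs, at 45.5%, 50.9% and 36.3%. A few barcodes, numbering 54, 84 and 66, had several UMIs of Lyz2 and Cd68 together and none of Pecam1, Cdh5 and Cd79a. In these, Cd74 held 70.4%, 67.5% and 63.2%.

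Which genes were ranked therefore set the order of the 30 h library. With Cd74 and H2-Aa alone, the top 5% took 4.95% of control barcodes, 6.49% at 6 h and 3.40% at 30 h. With H2-Aa, H2-Ab1 and H2-Eb1 and no Cd74, a ranking added after the data had been seen, it took 3.60%, 4.77% and 7.01% (6.40 to 7.67%). The share at 6 h exceeded control under both rankings, whereas the 30 h share lay 1.54 points below control under the first and 3.41 points above it under the second. Of the members, 51% in control, 57.1% at 6 h and 83.7% at 30 h were also in the top 5% without Cd74, and made up 62.5%, 73.7% and 53% of it.

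**Figure D2:**
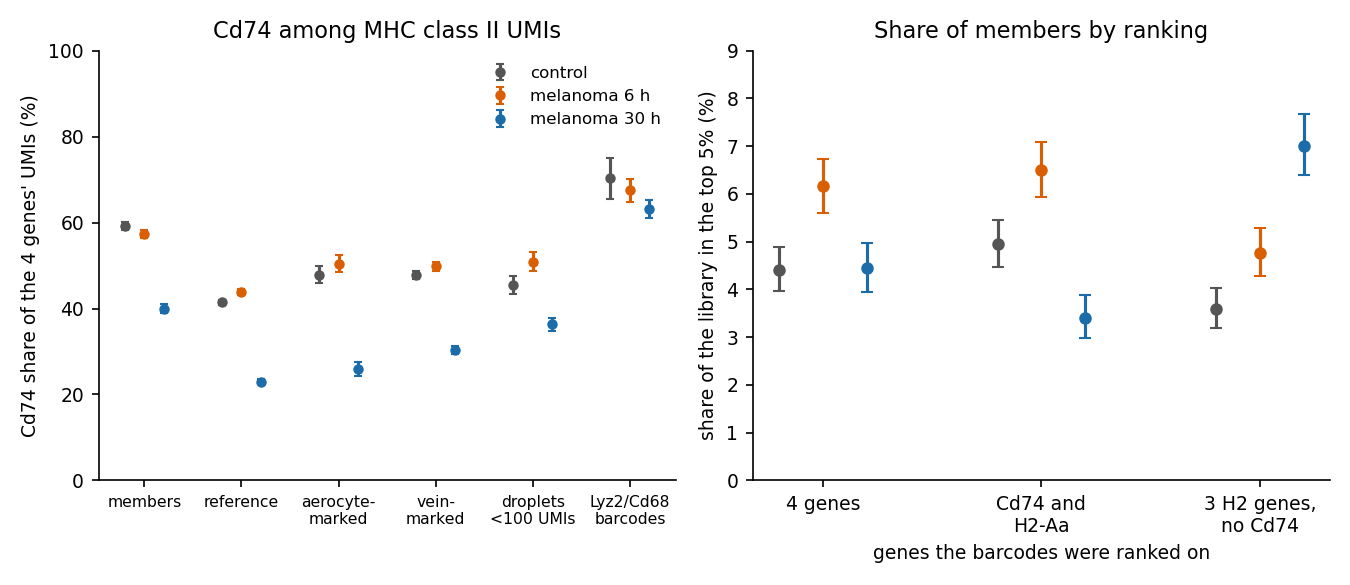
Left, share of the UMIs of Cd74, H2-Aa, H2-Ab1 and H2-Eb1 that came from Cd74 (%, y axis) in 6 sets of barcodes; right, share of each library's gated barcodes in the pooled top 5% (%, y axis) when ranked on 4, 2 or 3 genes. Points are libraries and bars exact 95% intervals of counting error; the 30 h library is lowest in each set on the left, and goes from 3.40% to 7.01% on the right.

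Within the same barcodes, the value carried over to UMIs it was not computed from. RNA of any source in a barcode enters both sides, so this bears on counting error and not on where the RNA came from. When the UMIs of each barcode were split at random into 2 sets and members were picked on one, the other gave 2947, 3172 and 2960 CPM of the 4 genes in the picked barcodes and 399, 423 and 386 CPM in the rest. Picks on one set and on the other shared 219 barcodes in control, 298 at 6 h and 172 at 30 h, which was 61.2%, 68.3% and 63.0% of the first and 62.6%, 69.5% and 59.7% of the second. Each set held only part of a barcode's UMIs, and of the members picked on all UMIs, 80.7%, 85.8% and 80.5% were also picked on the first set. That set is part of the UMIs that picked them, so this last overlap is partly built in. Picked on Cd74 and H2-Aa, members held H2-Ab1 and H2-Eb1 together at 692, 765 and 1089 CPM against 152, 155 and 204 CPM in the rest. Picked on the 3 H2 genes, they held Cd74 at 1354, 1524 and 745 CPM against 195, 225 and 91.5 CPM.

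The peptide editor was higher in members in every library. H2-DMa stood at 70.3 CPM in control members, 76.3 CPM at 6 h and 125 CPM at 30 h, against 15.0, 14.2 and 24.3 CPM in the reference. Its log2 ratios, computed with 1 CPM added, were 2.16 (1.99 to 2.46), 2.34 (2.22 to 2.63) and 2.32 (2.18 to 2.55). H2-DMb1 stood at 80.7, 112 and 137 CPM against 20.1, 20.9 and 25.5 CPM, with log2 ratios of 1.95 (1.79 to 2.22), 2.38 (2.26 to 2.60) and 2.38 (2.24 to 2.60). All 3 member values lay above all 3 reference values for both genes, and the share of all genes for which this held was not counted. In members, both were higher at 30 h than in control, with log2 ratios of 0.82 (0.56 to 1.11) and 0.75 (0.51 to 1.02). In droplets of under 100 UMIs, H2-DMa was at 22.6, 21.3 and 40.9 CPM.

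Ciita, the transactivator, was higher in members than in the reference in control and at 6 h, with less difference at 30 h. It stood at 27.8, 46.3 and 15.5 CPM in members and 9.74, 18.3 and 11.1 CPM in the reference, and the log2 ratios were 1.42 (1.14 to 1.87), 1.29 (1.09 to 1.58) and 0.44 (-0.05 to 0.96). From control to 6 h it was higher by a log2 ratio of 0.72 (0.33 to 1.16) in members and 0.85 in the reference. At 30 h it was lower than control in members, by -0.80 (-1.46 to -0.25), and higher in the reference, by 0.18 (0.03 to 0.36). The 30 h value rested on 36 UMIs in 31 members. Without barcodes holding aerocyte UMIs, the Ciita ratios of members to reference were 1.12, 1.21 and 0.14. The other regulators of the module differed less. Rfxap was at 42.5, 36.4 and 34.0 CPM in members against 34.9, 30.8 and 27.5 CPM, Rfx5, below the filter, was at 4.25, 6.41 and 7.31 CPM against 4.50, 4.08 and 5.58 CPM, and the mean log2 ratios of Rfxank, Nfya, Nfyb, Nfyc and Creb1 lay between -0.22 and -0.07.

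Of the 14 partner genes, 9 passed the filter of a mean of 10 CPM, 4 of these were higher in members in all 3 libraries (H2-DMa, H2-DMb1, Ciita and Rfxap) and 2 lower, and the median of their mean log2 ratios was -0.07. Of all 8739 genes tested, 1522 were higher in all 3 libraries by any amount (17.4%) and 1970 lower (22.5%). H2-DMb2, H2-Oa and H2-Eb2 were at 0.29 CPM or less in every member sum. H2-Ob, the β chain of the H2-DM inhibitor of B cells, was at 2.70, 2.04 and 5.16 CPM in members and 0.949, 1.11 and 1.69 CPM in the reference. Of 7 endosomal proteases and other processing genes above the filter, 2 were higher in all 3 libraries and 2 lower, and their median was -0.07. Ctsl, the cathepsin that cuts the invariant chain in some cell types, was at 270, 240 and 262 CPM in members and 296, 272 and 279 CPM in the reference, and Ctss, which does so in professional antigen-presenting cells, was at 1.16 to 1.54 CPM in members.

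**Figure D3:**
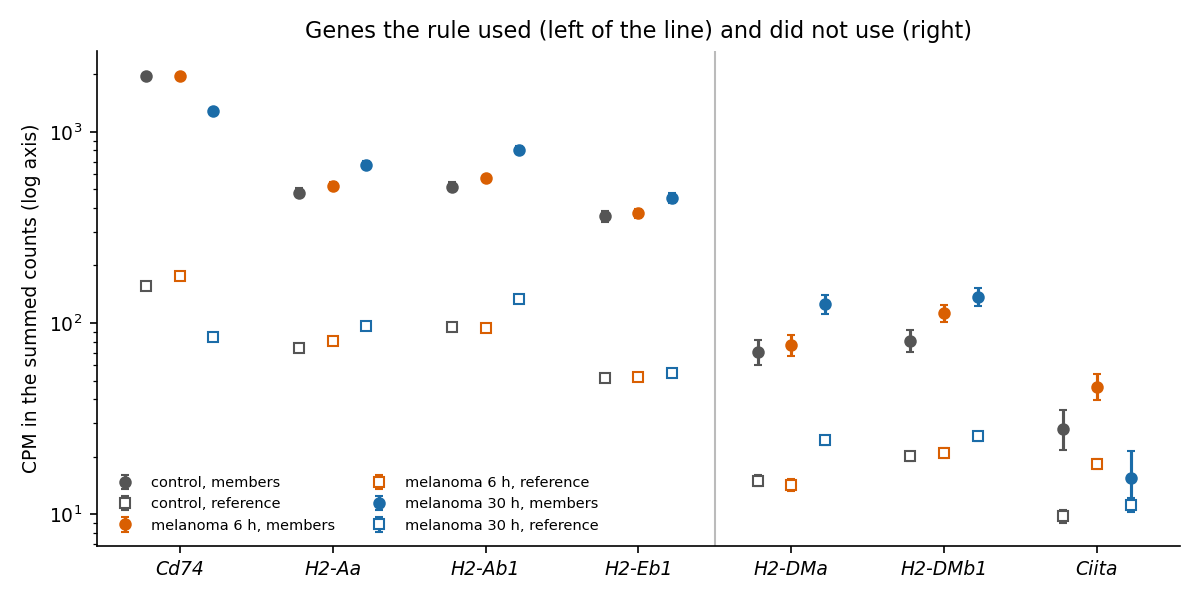
CPM (log y axis) of 7 genes in the summed counts of members (filled circles) and of the reference (open squares), 1 colour per library, with exact Poisson 95% intervals. Left of the line are the 4 genes that chose the members, right of it 3 genes that did not; Cd74 is lowest and H2-Ab1, H2-DMa and H2-DMb1 are highest in the 30 h library in both sets.

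These genes also followed the class II value below the limit. In control, H2-DMa stood at 7.08 CPM in barcodes with no class II UMI, at 9.77, 16.9 and 34.4 CPM over 3 further steps up to the limit, at 62.8 CPM in members below the top 1% and at 104 CPM in the top 1%. H2-DMb1 went from 5.18 to 129 CPM over the same steps, and at 30 h the pair went from 8.11 to 215 CPM and from 6.06 to 188 CPM. H2-K1, H2-D1 and B2m together went from 6076 CPM at no class II UMI to 8919 CPM in the top 1% in control. The 6 h library gave 6621 and 9537 CPM for these ends, and the 30 h library 5656 and 8404 CPM. H2-DMa, H2-DMb1 and the class I sum were higher at each step than at the one before in all 3 libraries. Ciita did so in control and at 6 h, and at 30 h stood at 13.6 CPM in members below the top 1% against 21.7 CPM in the step before. The aerocyte markers went down at each step, from 2076 to 567 CPM in control.

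**Figure D4:**
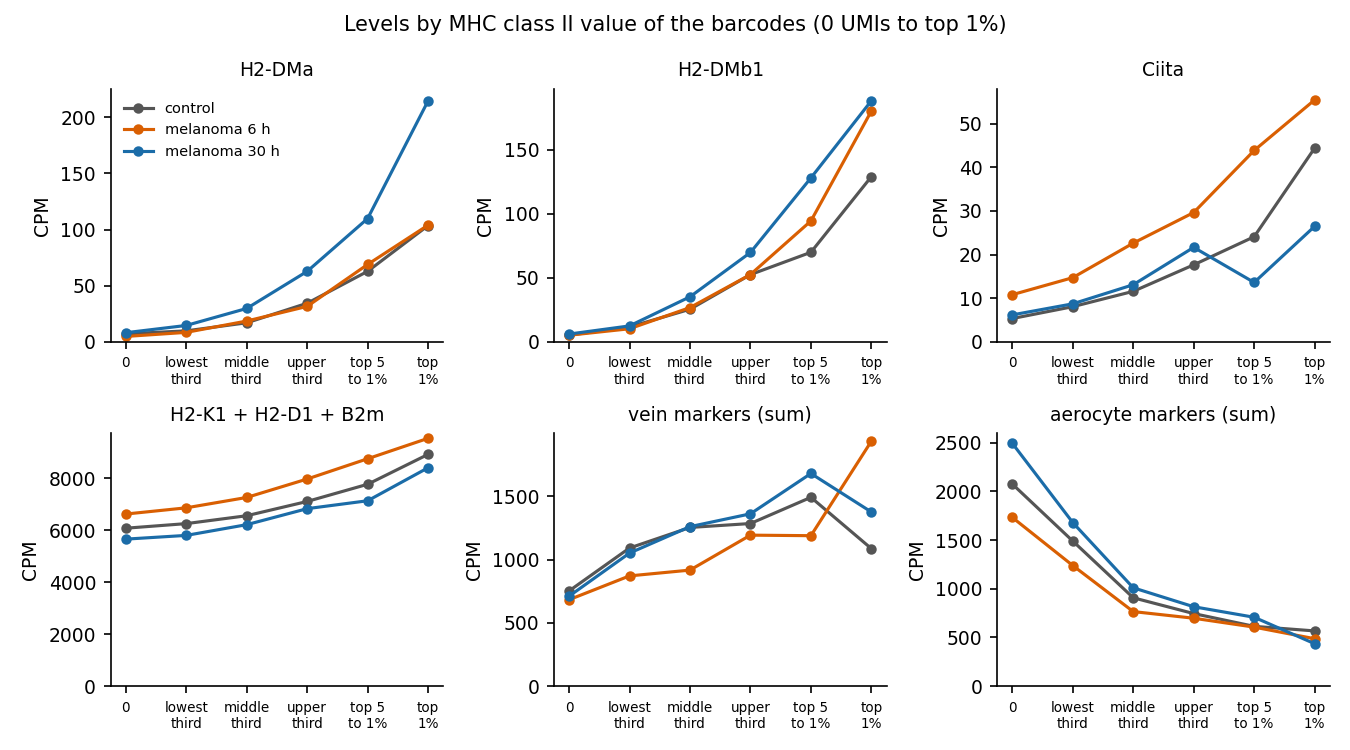
CPM (y axes, from 0) of 3 single genes and 3 gene sums in gated barcodes ordered by their MHC class II value (x axis, from 0 UMIs over 3 steps up to the limit, the last of them smaller since the members were taken out of it, to the top 5 to 1% and the top 1%), 1 line per library. H2-DMa, H2-DMb1 and the MHC class I sum climb at each step in all 3 libraries, the aerocyte sum falls, and the vein sum is lower in the top 1% than just below it in control and at 30 h.

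MHC class I and interferon genes were slightly higher in members. Of 21 genes of MHC class I presentation, 19 were higher in members in all 3 libraries (17.4% of all genes were), with median log2 ratios of 0.32 in control, 0.33 at 6 h and 0.22 at 30 h, beside -0.01, -0.02 and -0.01 over all genes tested. H2-K1, a classical class I heavy chain, was at 2229, 2858 and 2104 CPM in members and 1719, 2143 and 1598 CPM in the reference. H2-T23, the mouse Qa-1 molecule, showed the largest mean difference of the list (0.56), at 472, 462 and 578 CPM against 347, 297 and 378 CPM. The immunoproteasome subunits Psmb8 and Psmb9 had mean log2 ratios of 0.43 and 0.41, and Tap1, of the peptide transporter, was at 109, 129 and 55.1 CPM against 75.9, 92.0 and 52.5 CPM. Canx was the only gene of the list lower in all 3 libraries, by a mean of -0.08, and Erap1 was at 0.00. None of the 21 passed 0.5 in every library, though H2-T23 did once barcodes with aerocyte UMIs were left out.

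Among 22 interferon gamma genes above the filter, 14 were higher in members in all 3 libraries and 3 lower, beside 17.4% and 22.5% of all genes, and the median ratios were 0.24, 0.37 and 0.18. Igtp, an immunity-related GTPase, was the 1 gene of the list past 0.5 in each library, at 89.2, 116 and 55.1 CPM against 53.5, 73.6 and 33.3 CPM. The guanylate-binding proteins Gbp2, Gbp3, Gbp4, Gbp5 and Gbp7 were higher in members in all 3 libraries as well. Irf1, a transcription factor of the pathway, was at 335, 450 and 210 CPM in members and 340, 428 and 233 CPM in the reference, a mean ratio of -0.03. The 17 type I interferon genes had medians of 0.26, 0.24 and 0.14, with 10 higher throughout. Members were also more often in the top 5% of gated barcodes for class I UMIs: 15.0%, 25.3% and 13.8% of members against 2.70%, 6.86% and 3.36% of the reference, members making up 20.4%, 19.5% and 16% of that set. For the interferon gamma list the shares were 6.34%, 14.4% and 2.13% of members against 4.28%, 8.55% and 1.37% of the reference, and 6.40%, 9.94% and 6.74% of the interferon set were members. Most members were thus outside this interferon set. At 30 h its size alone required this, since the set held 89 barcodes there, beside 282 members. It held 344 barcodes in control and 634 at 6 h.

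The interferon-induced chemokines showed the largest ratios of the list and rested on single cells. Cxcl9 was at 86.5 CPM in control members and 1.73 CPM in the control reference, but 221 of its 224 UMIs lay in 1 barcode, and without it the level was 1.16 CPM. Cxcl10 was at 88.8, 51.3 and 1.72 CPM in members and 3.78, 10.7 and 9.10 CPM in the reference. Of its UMIs in control members, 222 of 230 came from 1 barcode, and 99 of 176 at 6 h. No statement on members as a whole follows from these chemokine values.

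The classical costimulatory ligands were nearly absent, while other genes of the list were measured. Cd80 and Cd86, the ligands by which professional antigen-presenting cells activate T cells, were at 0.29 CPM or less and at 0 in members. Of 7 genes of the list above the filter, 3 were higher in members in all 3 libraries (Cd40, Cd274 and Lgals9), beside 17.4% of all genes, and the medians were 0.16, 0.17 and 0.01. Cd40, the receptor for T-cell help, was at 39.4, 44.8 and 34.8 CPM in members and 27.5, 32.8 and 27.7 CPM in the reference. Cd274, which encodes the inhibitory ligand PD-L1, was at 28.2, 37.6 and 18.1 CPM against 18.6, 27.4 and 16.5 CPM. Vcam1, an adhesion receptor for leukocytes, was at 127, 188 and 34.8 CPM against 41.1, 58.1 and 39.3 CPM, log2 ratios of 1.61 (1.46 to 1.80), 1.68 (1.57 to 1.82) and -0.17 (-0.51 to 0.15). Its UMIs came from 35, 46 and 24 members, and the 5 highest barcodes held 58.8%, 53.2% and 48.1% of them. Without barcodes holding aerocyte UMIs, the Vcam1 ratios were 0.89, 1.94 and -0.86. Among genes around the Cd74 ligand Mif, Mif itself was at 52.1, 67.3 and 81.3 CPM in members and 45.9, 55.4 and 77.1 CPM in the reference, and the receptor Ackr3 at 120, 164 and 200 CPM against 107, 123 and 147 CPM.

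Over all genes, few stood apart from the reference in each library. Counting a log2 ratio of at least 0.5 in all 3 libraries, 15 of 8739 genes were higher in members (0.172%) and 84 were lower by as much (0.961%). The higher genes were led by H2-DMa and H2-DMb1. By the naming rule, which asks for 20 CPM, Prss23, Igtp, Bst1, Slc6a6, Ntrk2, Ptgis, Gja4 and Hip1r followed, and the other 5, named after their values had been seen, were Ch25h, Ptgs2, Tmem45a, Pla2g4a and Ass1. Bst1 and Prss23 belong to the vein list and Gja4 and Ntrk2 to the artery list. Slc6a6, the taurine transporter, was at 146, 120 and 189 CPM in members against 75.9, 67.5 and 125 CPM in the reference. Pla2g4a, Ptgs2 and Ptgis encode enzymes of the path from membrane lipid to prostacyclin. Ptgs2, which encodes cyclooxygenase 2, was at 32.0, 33.2 and 14.6 CPM against 14.3, 16 and 7.01 CPM, and 79.8% to 85.3% of its UMIs lay in 5 members. Ch25h, cholesterol 25-hydroxylase, was at 26.6, 25.6 and 21.9 CPM against 8.28, 9.47 and 8.90 CPM, carried by 15, 18 and 15 members. The 5 highest barcodes held 73.9%, 59.1% and 64.7% of its UMIs.

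The lower genes included the markers of aerocytes, which the gate admits. All 7 aerocyte markers were lower by 0.5 in every library, with medians of -2.14, -1.98 and -1.92. Ednrb, the endothelin receptor that marks aerocytes, was at 27.8, 17.8 and 31.0 CPM in members and 147, 99.5 and 152 CPM in the reference, and Fibin was at 15.1, 9.32 and 23.2 CPM against 131, 70.9 and 90.9 CPM. Rgs6, Slc22a23, Tmeff2, Tbx2, Pcolce2 and Tbx3os1, a transcript antisense to Tbx3, were also among the 10 lowest, but without barcodes holding aerocyte UMIs their mean ratios other than that of Tbx2, a gene of that setting, went from -2.78 to -0.15 (Rgs6), -2.39 to -0.86 (Slc22a23), -2.36 to 0.092 (Tmeff2), -1.64 to -1.04 (Pcolce2) and -1.51 to -0.025 (Tbx3os1). The lymphatic chemokine listed as Ccl21a (ENSMUSG00000094686), which has near-identical copies, was at 4.25, 2.91 and 6.88 CPM against 134, 114 and 230 CPM. Fabp4, a fatty acid carrier, was at 19.3, 12.5 and 29.7 CPM against 77.2, 139 and 185 CPM. The hemoglobin sum was at 1091, 804 and 146 CPM in members and 2850, 1539 and 683 CPM in the reference, while the shares of cells with a hemoglobin UMI were alike (99.4%, 98.9% and 62.8% of members, 99.6%, 98.2% and 61.3% of the reference).

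Vein markers were higher in members and artery markers mixed. Without barcodes holding aerocyte UMIs, several vein genes were near or below the reference in control and at 30 h, as given below. Of 9 vein genes above the filter, 6 were higher in all 3 libraries, beside 17.4% of all genes, with medians of 0.47, 0.61 and 0.76. Vwf, von Willebrand factor, was at 359, 329 and 549 CPM in members against 319, 243 and 321 CPM in the reference, and Vegfc at 159, 160 and 208 CPM against 115, 90.8 and 146 CPM. Ackr1, the marker of postcapillary venules, was at 0 in all 3 member sums and at most 0.112 CPM in the reference. The 9 artery genes had medians of 0.25, -0.02 and 0.20. Of these, 4 were higher in members in all 3 libraries and 2 lower, beside 17.4% and 22.5% of all genes. Cxcl12 was at 552, 428 and 1410 CPM against 294, 305 and 1081 CPM, and Mgp was lower in members, at 72.6, 84.7 and 103 CPM against 129, 137 and 205 CPM.

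Several of these differences moved when barcodes with aerocyte UMIs were taken out of the gate. In a setting added after the data had been seen, barcodes with any UMI of Ednrb, Tbx2, Fibin, Chst1 or Apln were left out. The top 5% was then picked anew from the 4680, 4514 and 3595 gated barcodes left, giving 202, 273 and 165 members. In these smaller sums, 8 genes were higher in members and 23 lower, of which 3 and 13 were shared with the 15 and 84 above. Whether aerocyte RNA, the new pick or the smaller sums moved the counts was not tested. The 3 were H2-DMa, H2-DMb1 and Igtp, and the other 5 were Gxylt2, Cyb561d2, Ramp3, H2-T23 of the class I list and Cd274. Some of the rest missed 0.5 in the 30 h library alone, such as Ntrk2 (0.61, 1.17 and 0.45) and Slc6a6 (0.70, 0.58 and 0.37). H2-DMa then had log2 ratios of 2.14, 2.29 and 2.18 and H2-DMb1 of 1.84, 2.39 and 2.28. The vein median was 0.31 in place of 0.59: Vwf was at 402, 444 and 456 CPM against 407, 292 and 431 CPM, and Slc6a2 at 210, 298 and 196 CPM against 218, 156 and 190 CPM in members and reference. For both genes the difference lay in the 6 h library, with log2 ratios of 0.60 and 0.93. Nr2f2 (-0.20, 0.62 and -0.10) and Vegfc (0.27, 0.98 and 0.11) were also highest at 6 h. Selp (0.11, 0.04 and 0.76) and Ephb4 (0.29, 0.02 and 0.19) were not. Prss23 had ratios of 0.57, 0.94 and 0.34 and Bst1 of 0.54, 0.82 and 0.35, so that both passed 0.5 in control and at 6 h but no longer at 30 h, where they had been at 0.89. Ptgs2 turned in this setting in control and at 30 h, with 11.3, 54.4 and 7.79 CPM in members against 22.5, 22.8 and 10.8 CPM. Pla2g4a had ratios of 0.43, 1.02 and 0.24 and Ptgis of 0.86, 0.85 and 0.10. The share of members was 4.32%, 6.05% and 4.59%.

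**Figure D5:**
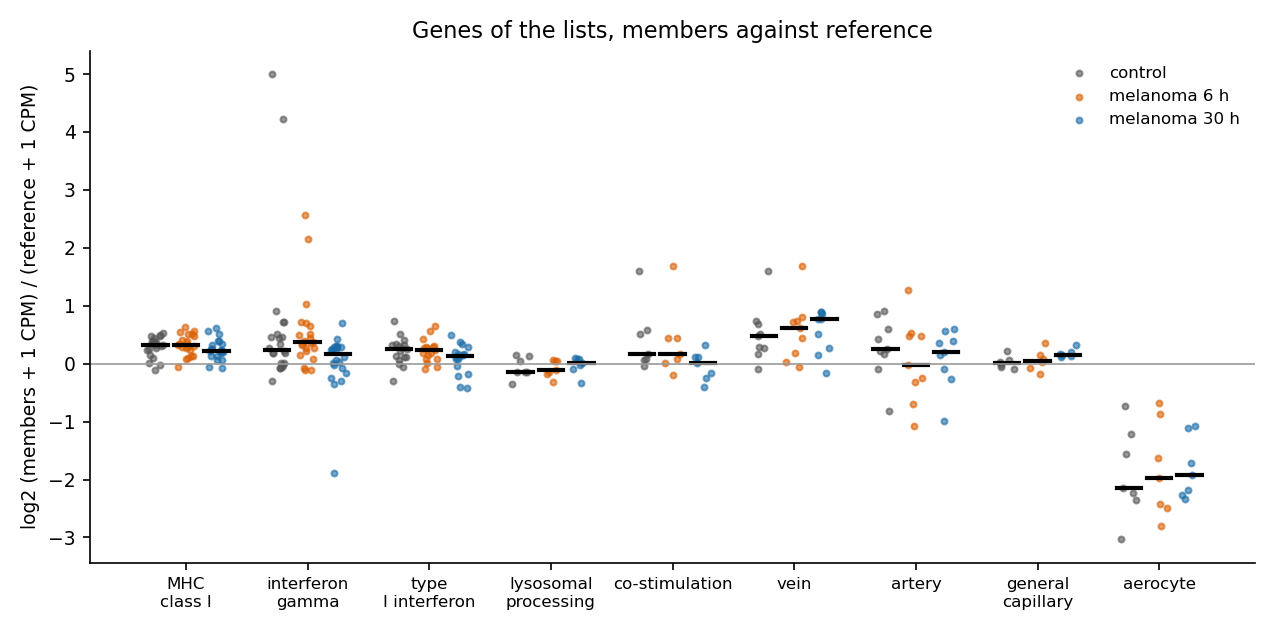
Log2 ratio of members to reference with 1 CPM added (y axis) for the genes of 9 lists above the filter, 1 point per gene and library, with black bars at the list medians. MHC class I genes sit a little above 0 in all 3 libraries, aerocyte genes between -0.67 and -3.03, and the 4 points above 2 are Cxcl9 and Cxcl10 in the control and 6 h libraries, which rest on few barcodes.

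Immediate early and heat shock genes lay near the reference or a little below it within each library, and NF-κB genes near it or a little above. Nr4a1 and Hspb1 were the 2 genes of these lists lower by 0.5 throughout, beside 0.961% of all 8739 genes. The medians over all genes were -0.01, -0.02 and -0.01. The median ratios of members to reference were -0.16, -0.05 and -0.16 over 13 immediate early genes, -0.08, -0.28 and -0.07 over 8 heat shock genes and 0.14, -0.02 and 0.11 over 11 NF-κB genes.

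The melanoma libraries differed from control in members in many of the same lists as in the reference. At 6 h, 431 of 8739 genes were higher in members by 0.5 (4.93%) and 433 lower (4.95%), and in the larger reference sums 228 were higher (2.61%) and 142 lower (1.62%). The 8 heat shock genes were all higher at 6 h in both, with medians of 1.00 in members and 1.1 in the reference, and the 7 genes of the reactive capillary panel, which the study drew from its own samples and is no independent evidence here, had medians of 0.65 and 0.73. Of the 22 interferon gamma genes, 8 passed 0.5 upward in members and 7 in the reference, and 2 were lower by 0.5 in members (Cxcl9 and Cxcl10, whose control levels came almost wholly from 1 barcode) and 0 in the reference, with medians of 0.43 and 0.35, and of the 21 class I genes 6 and 3 did, with medians of 0.30 and 0.29. Gbp2 was at 118 CPM in control members and 247 CPM at 6 h, a log2 ratio of 1.06 (0.87 to 1.26). By the naming rule, the genes with the largest ratios at 6 h in members included Scgb1a1, almost wholly from 1 barcode, then Hsph1, Phlda1, Hspa1b, Atf3, Hspa1a, Bcl6, Bcl6b and Cxcl16. Phlda1 was at 10.0 CPM in control members and 39.3 CPM at 6 h, against 25.7 and 37.7 CPM in the reference. The 10 lowest at 6 h were Cxcl9, whose control level came almost wholly from 1 barcode, Sema5a, Gm15478, Slc24a3, Per1, Adam23, Tnik, Zbtb16, Fkbp5 and Bnip3. Cxcl9, Slc24a3, Adam23 and Bnip3 were under 20 CPM in 6 h and 30 h members and passed through the control sum. Zbtb16 was at 247 CPM in control members and 99 CPM at 6 h, against 234 and 104 CPM in the reference.

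At 30 h, 729 genes were higher in members by 0.5 (8.34%) and 977 lower (11.2%), against 473 (5.41%) and 635 (7.27%) in the reference. The split depended on the scaling: with trimmed-mean (TMM) factors, 904 were higher and 742 lower in members. Among the higher genes by the naming rule were Gm42418, Cmss1, Cdk8, Lars2, Camk1d and Gm15564. The last was under 20 CPM in control and 6 h members and passed through the 30 h sum. Gm42418, which overlaps ribosomal RNA, was at 4805 CPM in control members and 17864 CPM at 30 h, and at 4275 and 17069 CPM in the reference, a difference of like size in both. The 10 lowest were Cxcl10, Cxcl9, Hbb-bt, Hbb-bs, Hba-a2, Scgb1a1, Hba-a1, Gclc, Mt1 and Txnrd1. Gclc, of glutathione synthesis, was at 149 CPM in control members and 29.3 CPM at 30 h, against 140 and 37.3 CPM in the reference, and Txnrd1, a thioredoxin reductase, at 119 and 25.4 CPM against 97.4 and 28.5 CPM. Of the interferon gamma genes, 8 of 22 were lower by 0.5 in members and 1 higher, and 6 were lower and 4 higher in the reference, with medians of -0.31 and -0.08. Gbp5 was at 49.8 CPM in control members, 81.0 CPM at 6 h and 23.2 CPM at 30 h, and Cd274 had a log2 ratio of -0.61 (-1.22 to -0.07) at 30 h. The class I median at 30 h was 0.08, beside -0.08 over all genes. Several genes that the rule did not use differed at 30 h in members and reference alike in direction, with log2 ratios of 0.82 and 0.67 for H2-DMa, 0.75 and 0.33 for H2-DMb1, -0.69 and -0.67 for Igtp and -1.07 and -0.59 for Gbp5. Vcam1 was at 34.8 CPM at 30 h, a log2 ratio of -1.84 (-2.24 to -1.52) to control in members and -0.06 (-0.15 to 0.02) in the reference. The member values rested on 35 members in control, where 5 barcodes held 58.8% of the UMIs, and on 24 at 30 h. The interval does not cover this uneven spread over barcodes.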

How the data were processed

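Lung ECs were profiled with 3′ droplet kits in 3 libraries, 1 per group, grouped by the treatment in the labels. The authors deposited unfiltered UMI counts per gene and barcode, which per the file headers came from Cell Ranger 7.2.0, with the build mm10 in the labels. The processing notes of the submitters also name Seurat 4.4.0. Barcodes were gated as described, UMIs were summed per library over members and over reference, scaled to CPM over all genes, and compared as log2 ratios with 1 CPM added. Genes averaging 10 CPM or more across the 6 sums were compared, without the 13 genes of the rule and gate. A gene could pass this filter through the member sums or the reference sums alone. A gene was counted at a log2 ratio of 0.5 or -0.5 in every library compared. The 10 genes named on each side needed 20 CPM, and some items are not reported here. Intervals were exact Poisson, exact binomial (Clopper-Pearson, combined by Newcombe's method for differences) and conditional binomial intervals at 95%. The members and all lists were chosen with earlier results of these data known, so no test of members against reference was run. Python 3.11.15, edgeR 4.0.16 (TMM factors only) and scanpy 1.11.5 (Scrublet scores) were used. Doublets stayed in the main values. Alternatives covered the limit, the genes ranked, doublets, leukocyte and aerocyte UMIs, the added CPM, the filter, TMM scaling and the libraries compared. Gene positions and promoters came from RefSeq tables of GRCm38.p6, the assembly of mm10, and no other coordinates were used.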

Additional observations from a re-analysis of the deposited data

Results flagged for a closer look

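Droplets of under 100 UMIs, which lie outside the gated barcodes, held the 4 MHC class II genes above the 611 CPM of the control library, at 714 CPM in the 6 h library and 694 CPM in the 30 h library. Their part in the values of members was not tested.

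Cxcl10 was higher in members than in the reference in control (log2 ratio 4.23) and at 6 h (2.16) and lower at 30 h (-1.89). The difference between libraries was not tested, and 222 of 230 UMIs in control members came from 1 barcode.

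Sftpa1, a surfactant gene, was higher in members at 6 h (log2 ratio 0.67) and lower at 30 h (-0.54), a difference that was likewise not tested.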

How the results depend on the processing

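No paired analysis across groups was possible because each group was 1 library. Members and reference were compared within each library, without a test. The 6 h share of members exceeded control under each of 10 alternatives, by 1.06 to 1.91 points. The 30 h share did not keep its order: its difference from control was -1.54 points ranked on Cd74 and H2-Aa, 3.41 points ranked without Cd74, and -0.84 points without barcodes holding any UMI of the leukocyte lists. That leukocyte setting included the dendritic list, whose Clec9a and Zbtb46 members and reference held alike, so it did not single out leukocyte RNA. It left 2455, 2559 and 1891 gated barcodes, with 118, 153 and 75 members. It also gave class II levels over all gated barcodes of 0.25 at 6 h and -0.093 at 30 h (log2). The 30 h level turned to 0.035 with TMM scaling and 0.018 without aerocyte UMIs. The vein median was 0.90 ranked on Cd74 and H2-Aa, and Tmeff2 turned to 0.092 without aerocyte UMIs, where Rgs6 and Tbx3os1 came to -0.15 and -0.025.

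Counts of genes moved too. Higher genes in members numbered 8 with 10 CPM added, 28 with no filter, 35, 23 and 29 with only control and 6 h, control and 30 h, or 6 h and 30 h libraries, 8 without aerocyte UMIs and 8 ranked without Cd74. Lower genes numbered 317 with no filter and 23 without aerocyte UMIs. Within members, genes higher and lower at 6 h numbered 707 and 723 at the top 2.5%, 270 and 275 at the top 10%, 196 and 182 with 10 CPM added, and 1782 and 1573 with no filter. They numbered 940 and 1073 in the smaller sums without UMIs of the leukocyte lists. Genes higher at 6 h numbered 677 when members were picked on one set of UMIs and read from the other, and 701 without aerocyte UMIs. At 30 h, genes higher and lower numbered 1202 and 1853 in the smaller sums without UMIs of the leukocyte lists, 407 and 515 with 10 CPM added, and 3016 and 2353 with no filter. The settings without aerocyte UMIs, without Cd74, and with the control and 30 h or the 6 h and 30 h libraries were chosen after seeing the data. The causes of these moves were not tested. Of 188 recomputed main results, 153 stayed within their interval or within 1.5 times, 33 moved and 2 reversed. A change of sign counted as reversed only where the main interval did not span both signs. Sign changes of the 30 h share were therefore not counted as reversed. The artery median, 0.13, was -0.059 without aerocyte UMIs. The partner median, -0.07, kept its sign under 11 of 18 alternatives. H2-DMa and H2-DMb1 were higher in members under all 18 alternatives run, by 1.83 to 2.44 and 1.88 to 2.40. With 1 library per group, library and condition cannot be told apart, and 5 to 90 class II UMIs per member limit the pick of single cells.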
